A study of Homo sapiens with 10 samples.

Results

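The interaction of SET knockdown with p53 status is the difference between the responses of a pair of U2OS lines to an siRNA against SET. For each gene it was the SET siRNA response of the line labelled p53 wild type minus that of the line labelled p53 knockout, on log2(FPKM + 1). The sample titles call the lines CRISPR p53-KO and CRISPR Ctr, and the second is labelled p53 WT; they are called KO-labelled and WT-labelled here. A positive interaction therefore means a more positive response in the WT-labelled line, and a negative one a more positive response in the KO-labelled line. FPKM is the number of fragments scaled for gene length and library size. A gene was tested where it reached FPKM 1 in 2 or more of the 10 libraries, which left 14813 of 25593 entries and set 10780 aside. U2OS is a human osteosarcoma line, and both lines were derived from it by CRISPR and selection. The 4 groups were KO-labelled cells with SET siRNA (n = 2), KO-labelled cells with control siRNA (n = 2), WT-labelled cells with SET siRNA (n = 3) and WT-labelled cells with control siRNA (n = 3), all collected 96 h after siRNA. Each p53 status is 1 derived line, so p53 status cannot be told apart from other differences between these lines. The libraries are labelled as biological replicates, but nothing says how their cultures were kept apart, so a p-value reflects the spread among these libraries.

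p53 is a transcription factor that responds to DNA damage and other stress, and it activates genes for cell cycle arrest, apoptosis, DNA repair and metabolism. Through its target CDKN1A, an inhibitor of cyclin-dependent kinases, it also lets repressor complexes of the RB family, including DREAM, hold down genes of DNA replication and mitosis. SET is a histone chaperone and an inhibitor of protein phosphatase 2A. It binds the unacetylated carboxyl terminus of p53 and restrains p53 as a transcription factor. By its title, the study asked which genes p53 and SET control together.

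Between 13804 and 14153 genes reached FPKM 1 per library, and read depth was not stated. The median half-width of the authors' FPKM intervals was 7.44 to 9.21%. Of 10 osteosarcoma and mesenchymal markers 8 reached FPKM 1, as did 4 of 7 epithelial markers, 0 of 7 blood markers and 0 of 5 endothelial markers. The summed FPKM of the mesenchymal markers was 1490 to 1628 in KO-labelled cells with SET siRNA, 1992 to 2108 in KO-labelled cells with control siRNA, 1250 to 1375 in WT-labelled cells with SET siRNA and 1963 to 2014 in WT-labelled cells with control siRNA. Among the epithelial markers KRT14, a keratin, was at most 2.23 FPKM in KO-labelled cells and 5.14 FPKM in WT-labelled cells and had an interaction of -0.63, and CLDN4, a claudin, had 0.48. KRT14 lost its call without the first KO-labelled library with SET siRNA (limma, adjusted p 0.0577) and CLDN4 without the second (0.0682). FPKM of a whole gene is no test of an edit, and the lines are named as they are labelled. Bulk values average over cells, so fewer cells of a kind or cycle phase and less RNA per cell cannot be told apart.

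SET itself had 14.9 and 14.9 FPKM with SET siRNA and 158 and 170 FPKM with control siRNA in KO-labelled cells. In WT-labelled cells it had 12.3, 13.3 and 12 FPKM with SET siRNA and 121, 125 and 126 FPKM with control siRNA. SET fell by 3.37 in KO-labelled cells and fell by 3.21 in WT-labelled cells on the log2 scale. Its interaction was 0.16 (SE 0.07), which did not pass the test (limma, adjusted p = 0.146). The siRNA groups did not overlap in either line.

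Across all tested genes 2831 interactions were called at a Benjamini-Hochberg adjusted p below 0.05 in limma, which was 19.1% of the genes tested. Positive calls numbered 1557 (10.5%) and negative calls 1274 (8.6%). Most called interactions were small: their median size was 0.46 on the log2 scale and 59.9% were below 0.5. An interaction of at least 1 in size, which is a 2-fold difference between the responses on this scale, was called for 92 genes (0.621%), with 64 positive (0.432%) and 28 negative (0.189%). With a pseudocount of 0.1 in place of 1 it was called for 200 genes. The SET siRNA response alone was called for 5571 genes (37.6%) in KO-labelled cells, 2926 higher (19.8%) and 2645 lower (17.9%). In WT-labelled cells it was called for 8117 (54.8%), 4564 higher (30.8%) and 3553 lower (24%). An unadjusted p below 0.05 was reached by 5378 genes (36.3%) for the interaction, 7044 (47.6%) for KO-labelled cells and 8930 (60.3%) for WT-labelled cells. The KO-labelled line had 2 libraries per group and the WT-labelled line 3, so these counts do not compare the lines. The count of called interactions rested on single libraries. It was 1143 without the first and 1466 without the second KO-labelled library with SET siRNA, and 4589 without the first and 1724 without the second KO-labelled library with control siRNA. It was 1820 without the first and 1760 without the second WT-labelled library with SET siRNA.

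The most common form of a positive interaction was a rise in WT-labelled cells with no call in KO-labelled cells, in 789 genes (50.7% of positive calls), with median responses of -0.03 in KO-labelled cells and 0.46 in WT-labelled cells. A further 129 genes fell in KO-labelled cells and rose in WT-labelled cells, 308 fell in KO-labelled cells with no call in WT-labelled cells, and 195 rose in both lines but more in WT-labelled cells. Among negative interactions the most common form was a fall in WT-labelled cells with no call in KO-labelled cells, in 617 genes (48.4%), with medians of 0.05 in KO-labelled cells and -0.42 in WT-labelled cells. A rise in KO-labelled cells with a fall in WT-labelled cells occurred in 135 genes, and a rise in KO-labelled cells with no call in WT-labelled cells in 293. Of all tested genes, 2519 rose in WT-labelled cells with no call in KO-labelled cells, and 1712 fell in WT-labelled cells with none in KO-labelled cells. WT-labelled groups had 3 libraries and KO-labelled ones 2, and the median standard error was 0.0705 against 0.0864. A call was thus easier in WT-labelled cells, so these shares do not compare the lines. The forms rest on single libraries, and the less common ones most. With 1 library left out the 129 became 49 to 256, the 308 became 68 to 531, the 195 became 95 to 369, the 135 became 52 to 306 and the 293 became 80 to 593. In each the low end was without the first KO-labelled library with SET siRNA and the high end without the first KO-labelled control library. The most common forms, the 789 and the 617, also rose without that control library. Leaving out the second KO-labelled library with either siRNA, or the first or second WT-labelled library with SET siRNA, moved the 129 to between 70 and 83, the 308 to between 112 and 186, the 135 to between 58 and 89 and the 293 to between 122 and 191. The 195 became 111 without the second KO-labelled library with SET siRNA, and the 308 became 192 without the first WT-labelled control library. For the most common forms, without the first KO-labelled library with SET siRNA the 789 became 377 and the 617 became 318. Without the second such library they became 478 and 377. Leaving out the second KO-labelled control library or the first or second WT-labelled library with SET siRNA moved the 789 to between 493 and 507, and leaving out the second WT-labelled library with SET siRNA moved the 617 to 407.

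**Figure D1:**
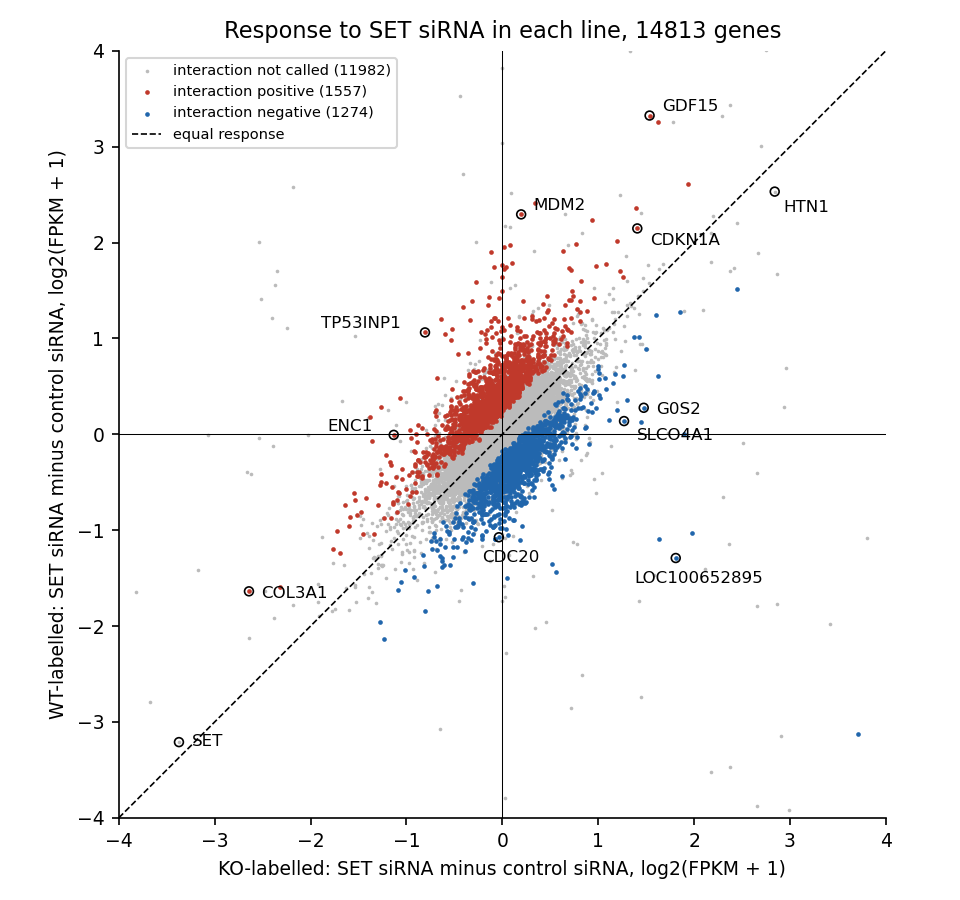
SET siRNA response of each tested gene on log2(FPKM + 1) in KO-labelled cells (horizontal) and WT-labelled cells (vertical); each point is a gene, coloured by the call of its interaction, and the diagonal marks equal responses. Called genes lie off the diagonal, most by less than 1; 18 genes lie outside the axes, which span 4 in each direction.

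Large responses mostly had the same direction in both lines, but often not the same size. A called response of at least 2-fold occurred in 247 genes (1.67%) in KO-labelled cells, 102 higher (0.689%) and 145 lower (0.979%), and in 345 (2.33%) in WT-labelled cells, 188 higher (1.27%) and 157 lower (1.06%). Of 188 genes that rose at least 2-fold in WT-labelled cells, 126 (67%) also rose in KO-labelled cells, and 7 fell there. Of 157 genes that fell at least 2-fold in WT-labelled cells, 128 (81.5%) also fell in KO-labelled cells. Chosen in the other line, 91 of 102 genes (89.2%) that rose at least 2-fold in KO-labelled cells also rose in WT-labelled cells, and 135 of 145 (93.1%) that fell did so in both. The shared rises included HTN1, a salivary histatin, and the non-coding RNA gene LINC00326. HTN1 had 23.7 and 23.4 FPKM with SET siRNA and 1.93 and 3.02 FPKM with control siRNA in KO-labelled cells, and 18.4, 14.2 and 14.7 FPKM with SET siRNA and 1.96, 1.97 and 1.73 FPKM with control siRNA in WT-labelled cells. Its interaction was -0.31 (adjusted p = 0.283, limma).

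The interaction moved with base composition. A GC share of the longest transcript was available for 13447 tested genes (90.8%). The median interaction was 0.22 in the lowest of 10 equal groups by GC share (29.6 to 38.6%) and -0.23 in the highest (61.5 to 83.9%). Positive calls made up 22.8% of the lowest group and 2.23% of the highest, and negative calls 1.34% of the lowest and 16.2% of the highest. Across genes, which are not independent replicates, Pearson's r between GC share and interaction was -0.30. It was -0.15 without the second KO-labelled library with control siRNA and -0.42 without the first, so its size depended on the KO-labelled control library used. Its part in the calls was not tested. Setting each library's median deviation to 0 within 20 GC bins gave 3468 calls (25.8%), against 2683 without it in the same genes. Of these 2683 calls 2137 (79.6%) were kept, and none of the shared calls changed sign. GC-centred counts are given beside the gene groups.

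**Figure D2:**
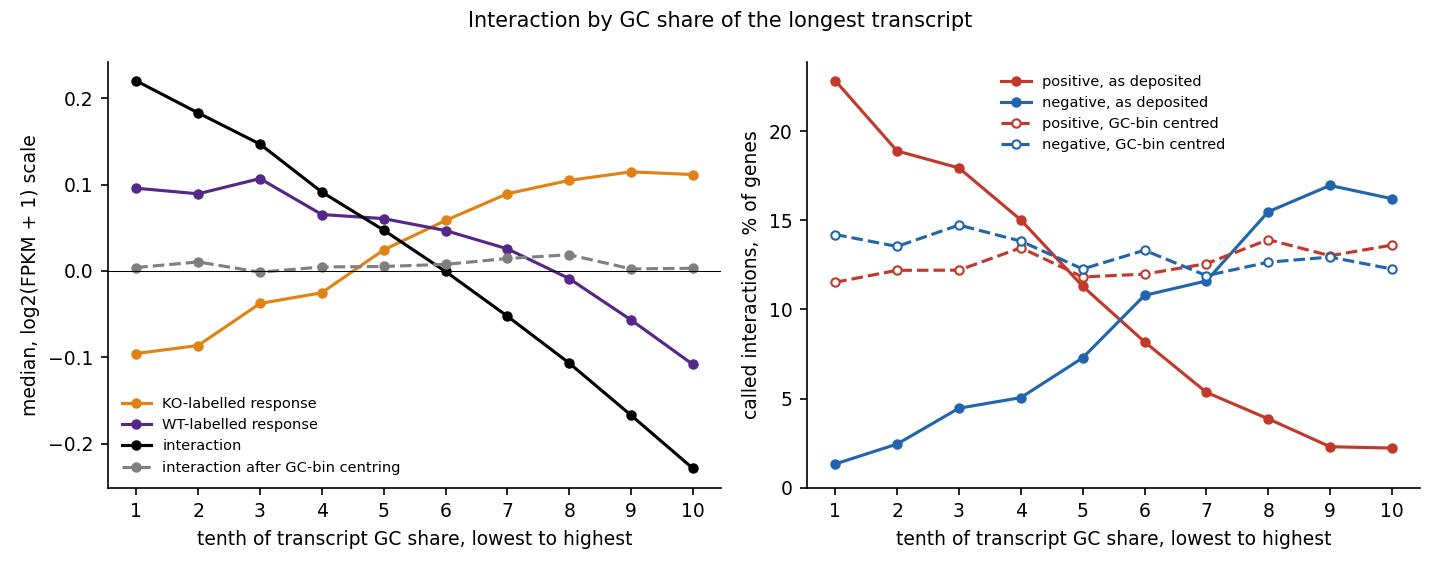
The left panel plots the median responses and interaction on log2(FPKM + 1), and the right panel the percent of genes called positive and negative, each in 10 equal groups of genes by GC share from low to high. The median interaction is 0.22 in the lowest group and -0.23 in the highest, and after GC-bin centring the medians lie near 0.

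Genes that p53 activates had more positive interactions, as a share, than any other list described. Over 3 lists with 71 tested members, 54 interactions were positive and 2 negative, against 10.5% and 8.6% of all genes. Their median interaction was 0.65, against 0.03 for all tested genes. Their median response was -0.01 in KO-labelled cells, with 17 higher and 14 lower, against 19.8% and 17.9% of all genes. It was 0.69 in WT-labelled cells, with 61 higher and 4 lower, against 30.8% and 24% of all genes. GC centring left 53 positive and 2 negative. The lists hold well-known targets and were chosen with earlier results in view, so the counts are a description.

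Among 18 targets of cell cycle arrest and feedback, 16 were positive and 1 negative (median 0.71), and 15 and 1 after GC centring. MDM2, the ubiquitin ligase that degrades p53, had 16.4 and 16.8 FPKM with SET siRNA and 13.1 and 15.7 FPKM with control siRNA in KO-labelled cells. WT-labelled cells had 213, 212 and 188 FPKM with SET siRNA and 38.7, 42.9 and 41.0 FPKM with control siRNA. MDM2 rose in WT-labelled cells by 2.29 on the log2 scale, its KO-labelled response of 0.20 did not pass (adjusted p = 0.118), and the interaction was 2.10 (SE 0.12; limma, adjusted p = 4.9e-05). Its groups did not overlap in either line. In the coordinates of the files, whose build is not given, MDM2 lies at chr12:69201971-69239212.

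TP53INP1, which promotes autophagy and cell death under p53, moved in opposite directions in the lines. It had 2.88 and 2.90 FPKM with SET siRNA and 5.56 and 6.05 FPKM with control siRNA in KO-labelled cells, and 31.5, 29.9 and 27.3 FPKM with SET siRNA and 13.0, 15.3 and 12.7 FPKM with control siRNA in WT-labelled cells. It fell by 0.81 in KO-labelled cells and rose by 1.06 in WT-labelled cells, an interaction of 1.87. SESN1, a stress-induced inhibitor of mTORC1 signalling, did likewise, with a KO-labelled response of -0.27, a WT-labelled response of 1.59 and an interaction of 1.86. BTG2, an antiproliferative gene, rose by 1.75 in WT-labelled cells with no call in KO-labelled cells (-0.08), and its interaction was 1.83. SFN, an arrest gene also called 14-3-3 sigma, went the other way: it fell by 0.51 in WT-labelled cells, and its interaction was -0.45 (adjusted p = 0.0476). That call was lost in 8 of 10 fits that left out 1 library each (highest adjusted p 0.135).

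CDKN1A rose in both lines. In the files' coordinates CDKN1A lies at chr6:36644237-36655116. It had 19.4 and 19.3 FPKM with SET siRNA and 6.84 and 6.51 FPKM with control siRNA in KO-labelled cells. The WT-labelled libraries had 741, 721 and 699 FPKM with SET siRNA and 163, 170 and 153 FPKM with control siRNA. The FPKM ratio was 2.9 in KO-labelled cells and 4.45 in WT-labelled cells, and the FPKM difference 12.7 in KO-labelled cells and 558 in WT-labelled cells. The interaction was 0.74 (SE 0.07; limma, adjusted p = 0.000469). GDF15, a stress-induced secreted factor that overlaps LOC100653010 and MIR3189 in the annotation, also rose in both lines, by 1.54 in KO-labelled cells and by 3.32 in WT-labelled cells, with an interaction of 1.79.

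**Figure D3:**
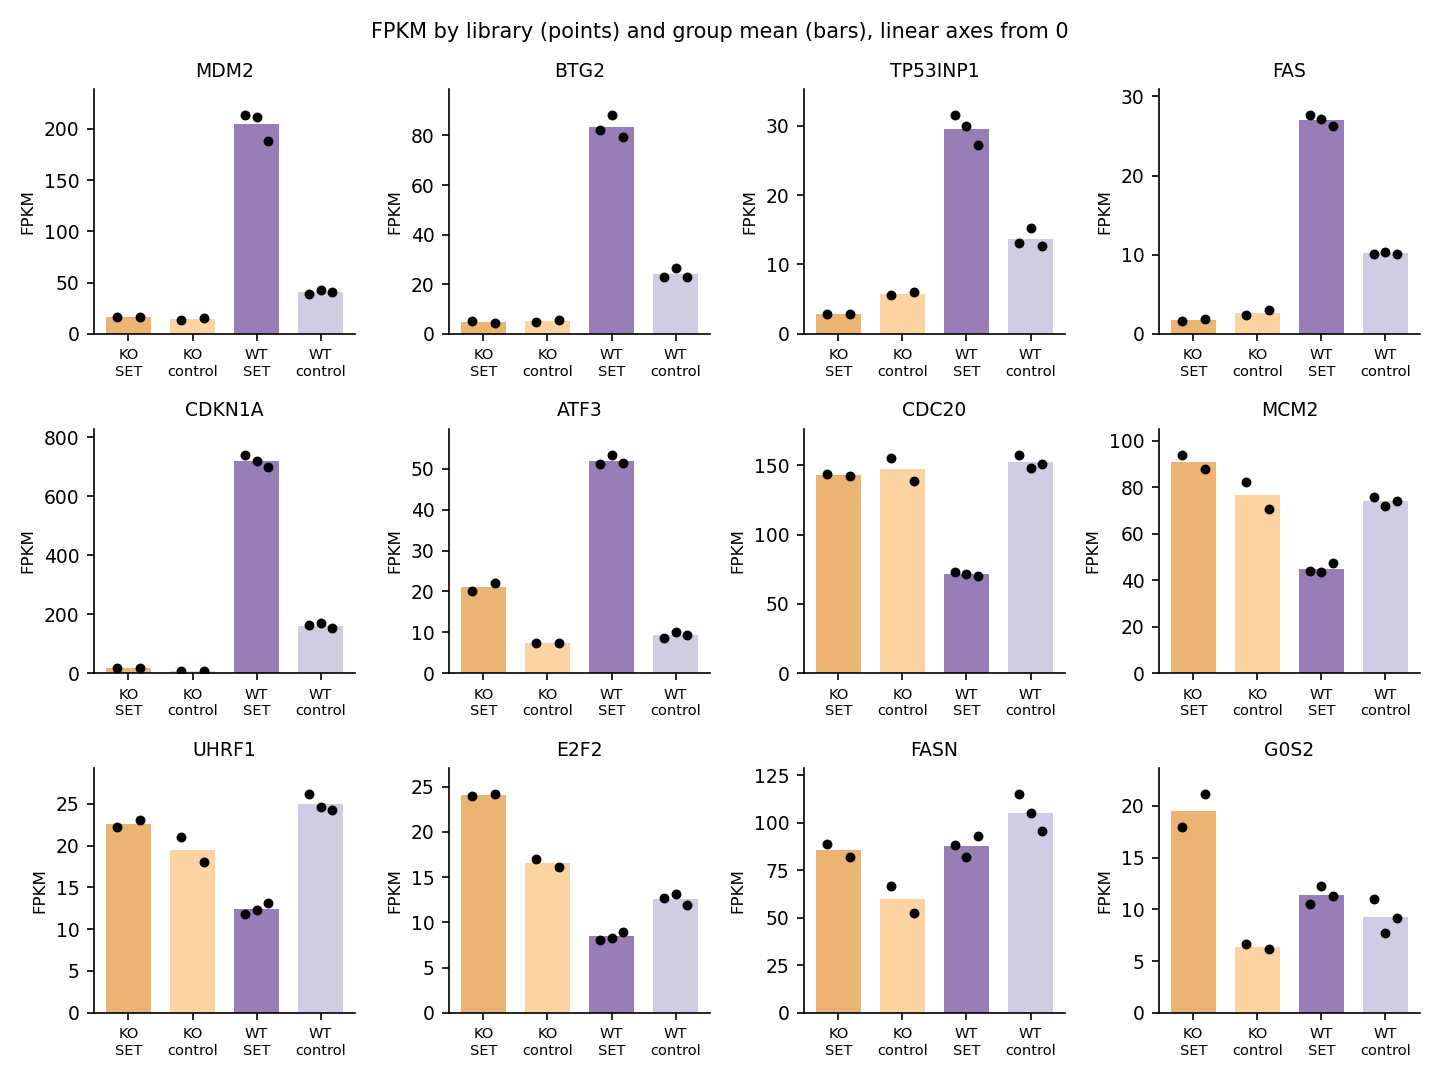
FPKM by library for 12 named genes on linear axes from 0, with KO-labelled groups left of WT-labelled ones and SET siRNA left of control siRNA. Points are libraries and bars are group means. MDM2 was 188 to 213 FPKM in WT-labelled cells with SET siRNA and at most 16.8 FPKM in KO-labelled cells.

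Of 15 apoptosis targets 9 were positive and 1 negative (median 0.64), with or without GC centring. FAS, a death receptor, fell by 0.41 in KO-labelled cells and rose by 1.33 in WT-labelled cells, an interaction of 1.74. FAS overlaps ACTA2 and FAS-AS1 in the annotation, and ACTA2 had an interaction of 1.52, so these entries may share reads. TP53I3, an oxidoreductase, had 33.5 and 29 FPKM with SET siRNA and 47.7 and 43.0 FPKM with control siRNA in KO-labelled cells, and 133, 122 and 123 FPKM with SET siRNA and 60.3, 57.1 and 57.4 FPKM with control siRNA in WT-labelled cells. It fell in KO-labelled cells and rose in WT-labelled cells, and the interaction was 1.63 (limma, adjusted p = 8.69e-05). FDXR, a mitochondrial ferredoxin reductase, rose by 0.72 in WT-labelled cells with a KO-labelled response of 0.00. BBC3, which encodes the BH3-only protein PUMA, rose in both lines, by 0.70 in KO-labelled cells and by 1.40 in WT-labelled cells. Its interaction of 0.70 (adjusted p = 0.0358) was lost in 8 of 10 leave-one-out fits (highest adjusted p 0.135). BID, a BH3-only protein, was the negative member at -0.44, and its call was lost in 6 of 10 (highest adjusted p 0.137).

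Of 38 targets in repair, metabolism and other roles 29 were positive and 0 negative at the limma threshold (median 0.62), and 0 were negative at an unadjusted p below 0.05. GC centring gave the same counts. RRM2B, the p53-induced ribonucleotide reductase subunit, had 13.4 and 14 FPKM with SET siRNA and 13.2 and 16.0 FPKM with control siRNA in KO-labelled cells, which overlapped. The WT-labelled line had 156, 157 and 143 FPKM with SET siRNA and 61.5, 68.7 and 64.7 FPKM with control siRNA, and its interaction was 1.30. The others named by rule were INPP5D, an inositol phosphatase, with an interaction of 1.65, ACER2, an alkaline ceramidase, with 1.57, and KIAA0247 with 1.29. INPP5D was at most 0.0360 FPKM in KO-labelled cells, where log2(FPKM + 1) cannot show a fold change.

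Several large positive interactions lay outside these lists. NBEAP1, a pseudogene, had an interaction of 2.08. It was 1.62 and 1.10 FPKM with SET siRNA and 0.846 and 0.859 FPKM with control siRNA in KO-labelled cells, and 34.5, 39.2 and 33.7 FPKM with SET siRNA and 6.64, 6.10 and 5.01 FPKM with control siRNA in WT-labelled cells. The siRNA groups did not overlap in either line, and the KO-labelled response of 0.34 did not pass (limma, adjusted p = 0.0742). CCL3, a chemokine, had 2.03, PVRL4, a nectin adhesion molecule, 1.93, and C8orf75 1.90, and these were below 0.5 FPKM in all KO-labelled libraries. PVRL4 was 0.0728 and 0.0695 FPKM with SET siRNA and 0.0343 and 0.0871 FPKM with control siRNA in KO-labelled cells. In WT-labelled cells it was 19.0, 18.5 and 17.3 FPKM with SET siRNA and 3.90, 3.96 and 4.09 FPKM with control siRNA. For such low genes the interaction is nearly the WT-labelled response alone. CDRT4 (1.70) lost its call in 5 of 10 leave-one-out fits. It also lost it with a pseudocount of 0.1 (limma, adjusted p 0.0777) and with no filter on low values (0.0612). Its WT-labelled libraries with control siRNA had 1.44, 0.0542 and 0.475 FPKM. CDRT4 overlaps FAM18B2-CDRT4 in the annotation, so these entries may share reads.

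Of 30 tested regulators and modifiers of p53, 3 were positive (10%) and 5 negative (16.7%), with a median of -0.01. The positive share was near the 10.5% of all genes, and 8.6% of all genes were negative. With 1 library left out 0 to 5 were positive and 2 to 5 negative, and GC centring gave 3 and 6. MDM4, an inhibitor of p53, had an interaction of 0.51, lost without the first KO-labelled library with SET siRNA (adjusted p 0.0532). KAT2B, an acetyltransferase, had 0.47, lost without that library or the second KO-labelled library with control siRNA (highest adjusted p 0.0744). Among the negative ones, TP73, a relative of p53, had -0.66 and SETD8, a methyltransferase of histone H4 and p53, -0.45, and both kept the call in all 10 leave-one-out fits. TRIM28, a corepressor, had -0.43 and lost it in 4 (highest adjusted p 0.109), and CHEK1, a checkpoint kinase, had -0.31 and lost it in 3 (highest adjusted p 0.0916).

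Genes of mitosis and G2/M were lower with SET siRNA in WT-labelled cells. Of 47 tested, 35 had a negative and 0 a positive interaction in limma, and all 47 estimates were below 0, with a median of -0.46. Of all genes 8.6% were negative and 10.5% positive. In WT-labelled cells 42 fell and 0 rose, with a median of -0.49, against 24% of all genes lower and 30.8% higher. In KO-labelled cells 7 rose and 10 fell, with a median of -0.04, against 19.8% of all genes higher and 17.9% lower. At an unadjusted p below 0.05, 40 were negative and 0 positive. GC centring gave 44 negative and 0 positive, and fits leaving out 1 library gave 25 to 40 negative.

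CDC20, the activator of the anaphase-promoting complex, had 144 and 142 FPKM with SET siRNA and 155 and 139 FPKM with control siRNA in KO-labelled cells. WT-labelled values were 73.3, 71.6 and 70.5 FPKM with SET siRNA and 158, 148 and 151 FPKM with control siRNA. The siRNA groups overlapped in KO-labelled cells and stood apart in WT-labelled cells, and the interaction was -1.04 (SE 0.08; limma, adjusted p = 0.00013). In the files' coordinates CDC20 lies at chr1:43824626-43828874. PLK1, a mitotic kinase, had 79.9 and 76.8 FPKM with SET siRNA and 89.3 and 76.9 FPKM with control siRNA in KO-labelled cells, and 38, 35.6 and 39.8 FPKM with SET siRNA and 84.4, 80.8 and 79.9 FPKM with control siRNA in WT-labelled cells. Its interaction was -1.01. CDCA8, the borealin subunit of the chromosomal passenger complex, had an interaction of -0.85, and CDC25A, a phosphatase that activates cyclin-dependent kinases, -0.83. CDC25A rose by 0.31 in KO-labelled cells and fell by 0.52 in WT-labelled cells.

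Promoters of cell cycle genes are known for the CHR, CCAAT and E2F elements through which DREAM, NF-Y and E2F proteins act. Stretches of 5 genes with interactions of -0.89 to -1.16 are shown for their letters. Each holds a searched element, and other genes in that range, such as E2F2 and MCM2, are not shown. The 5 therefore do not stand for genes with large negative interactions. The stretches are the 125 bases before the RefSeq gene start in GRCh38.p14, a build that need not be the one the authors used. Each is read 5′ to 3′ on the gene's strand. The CDC20 stretch is chr1:43358856-43358980 on the plus strand and that of PLK1 chr16:23678764-23678888 on the plus strand. Capitals in both mark the CHR element, TTTGAA, and the CCAAT box, in either orientation.
CDC20: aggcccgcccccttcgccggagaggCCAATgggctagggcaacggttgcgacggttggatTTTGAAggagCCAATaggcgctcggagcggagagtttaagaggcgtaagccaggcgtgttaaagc
PLK1: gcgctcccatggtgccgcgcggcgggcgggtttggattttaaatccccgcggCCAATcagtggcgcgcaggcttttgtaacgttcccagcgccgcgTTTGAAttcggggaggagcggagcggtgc
The CDT1 stretch is chr16:88803664-88803788 on the plus strand, that of E2F1 chr20:33686386-33686510 on the minus strand and that of UHRF1 chr19:4909376-4909500 on the plus strand. Capitals in these mark the E2F forms TTCCCGC and TTGGCGC in either orientation.
CDT1: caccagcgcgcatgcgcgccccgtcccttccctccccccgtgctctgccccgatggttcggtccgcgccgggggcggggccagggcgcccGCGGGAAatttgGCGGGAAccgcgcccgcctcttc
E2F1: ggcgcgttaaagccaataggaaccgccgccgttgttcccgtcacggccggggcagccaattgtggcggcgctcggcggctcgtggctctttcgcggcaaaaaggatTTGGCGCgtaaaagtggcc
UHRF1: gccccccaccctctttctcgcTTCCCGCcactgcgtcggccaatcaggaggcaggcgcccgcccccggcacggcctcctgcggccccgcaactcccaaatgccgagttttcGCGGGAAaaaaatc
The search covered both strands from 250 bases before to 50 bases after each start, in 10798 tested genes with a promoter in the RefSeq table. The CHR letters occurred in 29 of 41 matched mitosis and G2/M genes (70.7%) and in 9.6% of all matched genes. Among mitosis and G2/M genes with a negative interaction they occurred in 20 of 30 (66.7%), a share no higher than that of the whole list. Over all matched genes they occurred in 12.5% of those with a negative interaction and 10.5% of those with a positive one. CHR and CCAAT overlap by 1 base in CDCA8. CCAAT occurred in 82.9% of the mitosis and G2/M genes and 36.4% of all, and both together in 63.4% and 4.08%. An E2F form occurred in 27 of 48 matched G1/S genes (56.2%) and in 14.7% of all. It occurred in 22% of genes with a negative interaction, 11.5% of those with a positive one and 14.4% of those not called. The E2F forms are mostly G and C, and the calls differed in transcript GC share. Its median was 55.4% for negative and 42.5% for positive calls, and the part of GC share in the E2F matches was not tested. The p53 decamer occurred in 5 of 58 matched p53 targets (8.62%), a small count, in 7.15% of genes with a positive interaction and in 5.2% of all. A match is a run of letters, not a measured site.

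**Figure D4:**
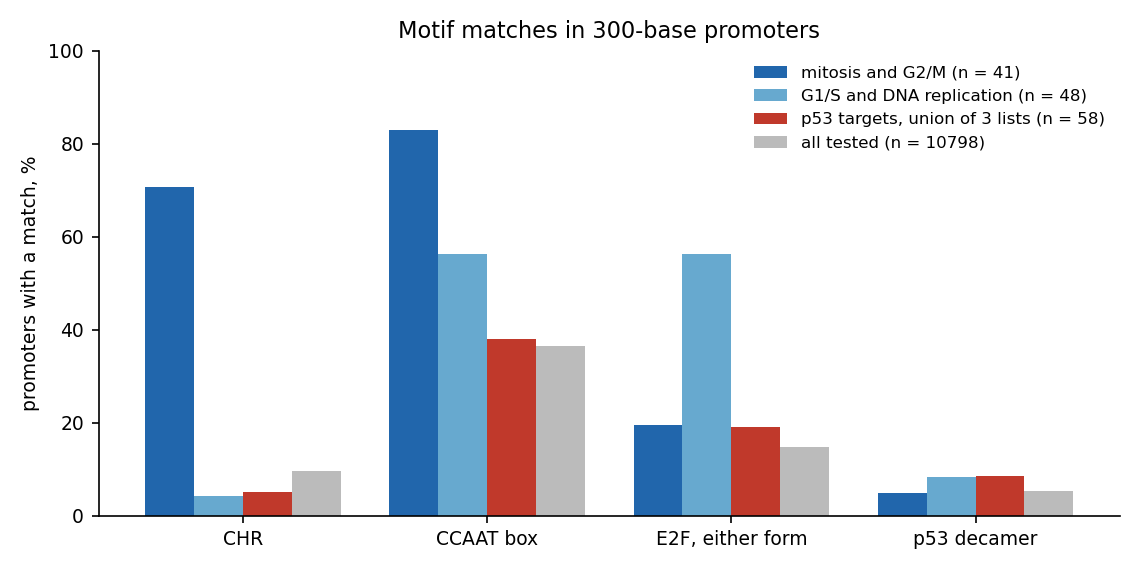
Percent of matched promoters (vertical) that hold each searched element, with a bar for mitosis and G2/M genes, G1/S and DNA replication genes, p53 targets and all tested genes with a promoter. CHR letters were in 70.7% of mitosis and G2/M promoters and 9.6% of all.

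Genes of G1/S and DNA replication had as negative a median, and more of them rose than fell in KO-labelled cells. Of 55 tested, 37 were negative and 0 positive in limma, against 8.6% and 10.5% of all genes, with a median interaction of -0.46. In KO-labelled cells 16 rose and 6 fell (median 0.06), against 19.8% and 17.9% of all genes. In WT-labelled cells 2 rose and 44 fell (median -0.37), against 30.8% and 24% of all genes. An unadjusted p below 0.05 gave 44 negative and 0 positive, and GC centring gave 47 negative and 0 positive. MCM2, a subunit of the replicative helicase, had 94.0 and 87.8 FPKM with SET siRNA and 82.4 and 70.6 FPKM with control siRNA in KO-labelled cells. The values in WT-labelled cells were 43.9, 43.4 and 47.4 FPKM with SET siRNA and 75.8, 72.1 and 74.1 FPKM with control siRNA. MCM2 rose by 0.25 in KO-labelled cells and fell by 0.71 in WT-labelled cells (interaction -0.96; limma, adjusted p = 0.000543). CDT1, a licensing factor that loads the helicase, had an interaction of -0.98, and MCM10 and MCM5 each -0.93.

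E2F transcription factors, which control these genes, did not all move one way. E2F2, an activator, had 24.0 and 24.2 FPKM with SET siRNA and 17.0 and 16.1 FPKM with control siRNA in KO-labelled cells, and 8.09, 8.31 and 8.91 FPKM with SET siRNA and 12.7, 13.1 and 11.9 FPKM with control siRNA in WT-labelled cells. It rose by 0.52 in KO-labelled cells and fell by 0.52 in WT-labelled cells, an interaction of -1.04. E2F1, another activator, had -0.89, and E2F8, a repressor, -0.71. E2F7, a repressor and itself a p53 target, fell by 0.55 in KO-labelled cells and rose by 0.24 in WT-labelled cells (interaction 0.78). RBL2, the p130 pocket protein of DREAM, had 0.41, lost in 3 of 10 leave-one-out fits, those without the second KO-labelled library with control siRNA or either with SET siRNA (highest adjusted p 0.0717). The list of DREAM, MuvB, E2F and RB genes had 2 positive and 7 negative calls of 21 (median -0.05), and 2 and 8 after GC centring (median -0.21). Without centring 9.52% were positive and 33.3% negative, against 10.5% and 8.6% of all genes. The positive share was thus near that of all genes.

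Of 18 cyclins, cyclin-dependent kinases and their inhibitors, 4 were positive (22.2%) and 10 negative (55.6%), against 10.5% and 8.6% of all genes. Their median was -0.32, and GC centring gave 4 positive and 11 negative. The positive ones were the inhibitors CDKN1A, CDKN1C (0.82) and CDKN2B (0.67) and the cyclin CCND2 (0.40). CDKN2B overlaps CDKN2B-AS. CCNE1, the cyclin of S phase entry, had 70.3 and 68.6 FPKM with SET siRNA and 46.7 and 47.4 FPKM with control siRNA in KO-labelled cells, and 38.2, 40.8 and 40.7 FPKM with SET siRNA and 44.1, 44.3 and 46.4 FPKM with control siRNA in WT-labelled cells. It rose by 0.55 in KO-labelled cells and fell by 0.17 in WT-labelled cells, an interaction of -0.72. CDKN2C, an inhibitor of CDK4 and CDK6, had -0.88.

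Other genes of chromosome duplication leaned the same way with fewer calls, and each of these lists had a larger share negative than the 8.6% of all genes. Kinetochore and centromere genes had 9 negative calls and 0 positive of 34 in limma (median -0.19), and condensin and cohesin genes 7 negative and 0 positive of 19 (median -0.15). Homologous recombination and Fanconi genes had 11 negative and 1 positive of 35 (median -0.17), nucleotide synthesis 11 negative and 1 positive of 28 (median -0.21), and chromatin and DNA methylation upkeep 14 negative and 3 positive of 37 (median -0.20). At an unadjusted p below 0.05, 0 kinetochore genes and 1 condensin and cohesin gene were positive. GC centring raised the negative calls to 22 for kinetochore, 14 for condensin and cohesin, 21 for recombination, 20 for nucleotide synthesis and 23 for chromatin genes, with 0, 0, 1, 2 and 3 positive in that order. Kinetochore calls were 5 without the first WT-labelled library with SET siRNA, and condensin and cohesin calls 4 without either KO-labelled library with SET siRNA. Nucleotide synthesis calls were 5 without the first of these and 7 without the second or without the first or second WT-labelled library with SET siRNA. Chromatin calls were 9 without either KO-labelled library or the first WT-labelled library with SET siRNA. The positive nucleotide synthesis member was MTHFD2 (0.32), a mitochondrial folate enzyme, lost without the first KO-labelled library with SET siRNA (adjusted p 0.0539).

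CENPA, the centromeric histone variant, had 86.6 and 91.2 FPKM with SET siRNA and 92.6 and 95.8 FPKM with control siRNA in KO-labelled cells. In WT-labelled cells it had 33.6, 36.9 and 34.4 FPKM with SET siRNA and 65.0, 69.0 and 57.8 FPKM with control siRNA, and the interaction was -0.77. CDCA5, the cohesin protector sororin, had an interaction of -0.82, and NCAPH, a condensin subunit, -0.67. EXO1, an exonuclease of repair, fell in both lines, by 0.52 in KO-labelled cells and by 1.18 in WT-labelled cells (interaction -0.67). H2AFX, the histone variant of DNA damage signalling, had -1.02, and SUV39H1, a histone H3 methyltransferase, -0.82. TK1, thymidine kinase, had -0.74, and RRM2, the S phase ribonucleotide reductase subunit, -0.41.

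UHRF1, which brings DNA methyltransferase to newly copied DNA, had 22.2 and 23.0 FPKM with SET siRNA and 21.0 and 18.1 FPKM with control siRNA in KO-labelled cells, against 11.8, 12.3 and 13.2 FPKM with SET siRNA and 26.2, 24.6 and 24.3 FPKM with control siRNA in WT-labelled cells. Its interaction was -1.16. TET2, a dioxygenase that oxidises methylated cytosine, was among the 3 positive members of that list, at 0.50, with EZH1 (0.50) and NAP1L1 (0.31). The last pair each lost the call in 7 of 10 leave-one-out fits (highest adjusted p 0.0977 for EZH1 and 0.13 for NAP1L1).

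**Figure D5:**
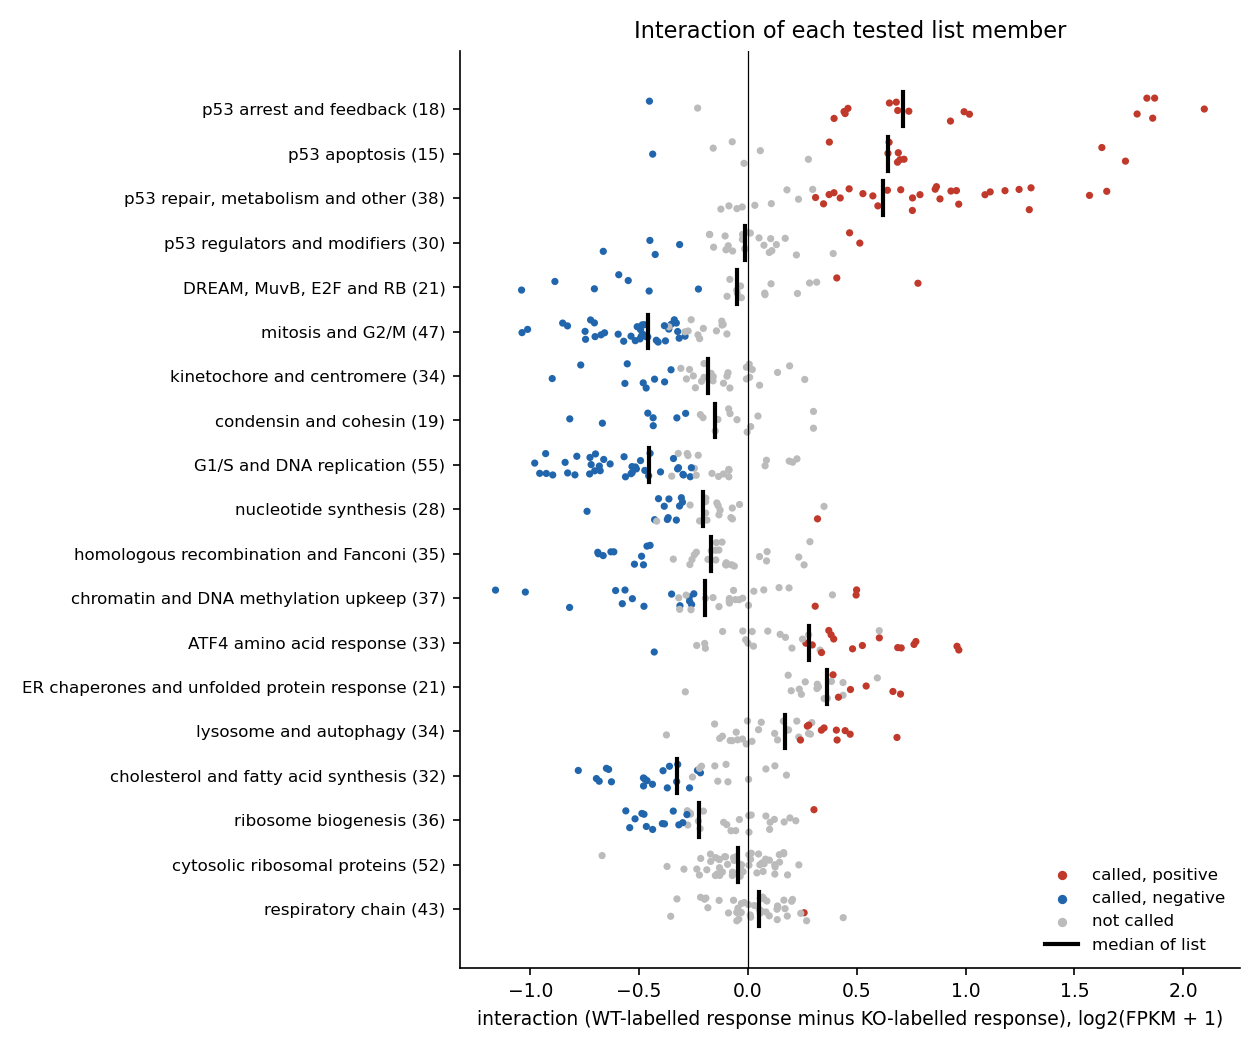
Interactions on log2(FPKM + 1) of the tested members of each gene list, with a point per gene and a bar at the list's median; colour marks the call, and a few members are left out. The p53 target lists have medians of 0.62 to 0.71, and mitosis and G2/M and G1/S genes -0.46.

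Genes of sterol and fatty acid synthesis were more often higher with SET siRNA in KO-labelled cells and more often lower in WT-labelled cells. Of 32 tested, 21 were negative and 0 positive in limma (median -0.32), against 8.6% and 10.5% of all genes, and an unadjusted p below 0.05 or GC centring each gave 23 negative and 0 positive. In KO-labelled cells 15 rose and 1 fell (median 0.18), against 19.8% and 17.9% of all genes. In WT-labelled cells 2 rose and 14 fell (median -0.08), against 30.8% and 24% of all genes. FASN, fatty acid synthase, had 88.9 and 82.2 FPKM with SET siRNA and 66.8 and 52.6 FPKM with control siRNA in KO-labelled cells. WT-labelled cells had 88.2, 81.8 and 93.0 FPKM with SET siRNA and 115, 105 and 95.7 FPKM with control siRNA. The groups stood apart in both lines, in opposite directions, and the interaction was -0.78 (limma, adjusted p = 0.00988). In the files' coordinates FASN lies at chr17:80036214-80056106. DHCR7, a sterol reductase, had -0.70, and SCD, a desaturase, -0.68. The count of 21 was 9 without the second KO-labelled library with SET siRNA, 12 without the first, 12 without the second WT-labelled control library, and 13 without the first or second WT-labelled library with SET siRNA.

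In each line most genes of the amino acid response driven by ATF4 rose. Of 33 tested, 15 were positive and 1 negative (median 0.28), against 10.5% and 8.6% of all genes, and 18 and 1 after GC centring. Fewer were positive when either KO-labelled library with SET siRNA was left out. The SET siRNA response was called with 21 higher and 1 lower in KO-labelled cells, against 19.8% and 17.9% of all genes. In WT-labelled cells 27 were higher and 1 lower, against 30.8% and 24% of all genes. ASNS, asparagine synthetase, had 166 and 173 FPKM with SET siRNA and 97.3 and 106 FPKM with control siRNA in KO-labelled cells, and 203, 209 and 203 FPKM with SET siRNA and 68.4, 72.9 and 74.9 FPKM with control siRNA in WT-labelled cells. It rose by 0.73 in KO-labelled cells and by 1.49 in WT-labelled cells, an interaction of 0.76. ATF3, a stress-induced transcription factor, had 0.97, CTH, the cystathionine lyase, 0.96, and CHAC1, which degrades glutathione, 0.77. SLC7A5, a leucine transporter, was the negative member at -0.43, lost in 7 of 10 leave-one-out fits (highest adjusted p 0.097).

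Chaperones and sensors of the endoplasmic reticulum had 6 positive and 0 negative calls of 21 in limma (median 0.36), against 10.5% and 8.6% of all genes, 15 and 0 at an unadjusted p below 0.05, and 10 and 0 after GC centring. The count called was 16 without the third WT-labelled library with SET siRNA, 1 without the second KO-labelled library with either siRNA, 2 without the first KO-labelled library with SET siRNA, and 3 without the first WT-labelled control library or the first or second WT-labelled library with SET siRNA. XBP1, the spliced transcription factor of the unfolded protein response, had an interaction of 0.54 and kept its call in all 10 of those fits. Lysosome and autophagy genes had 10 positive and 0 negative of 34 in limma (median 0.17), 15 and 1 at an unadjusted p below 0.05, 14 and 0 after GC centring, and 4 or 5 positive without either KO-labelled library with SET siRNA. Among them ATP6V1A, a subunit of the proton pump, had 0.45 and WIPI1, an autophagosome protein, 0.41. Ribosome biogenesis had 1 positive and 13 negative of 36 (median -0.22), and 1 and 19 after GC centring, with medians of 0.24 in KO-labelled cells and -0.01 in WT-labelled cells, and 6 negative without the first KO-labelled library with SET siRNA. TCOF1, the nucleolar protein treacle, rose by 0.31 in KO-labelled cells and fell by 0.23 in WT-labelled cells. The positive member was UTP3 (0.30), lost in 8 of 10 leave-one-out fits (highest adjusted p 0.125).

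Inflammatory genes under NF-kB were mixed, with 5 positive (23.8%, against 10.5% of all genes) and 3 negative (14.3%, against 8.6%) of 21 (median -0.04, and median responses of 0.45 in KO-labelled cells and 0.44 in WT-labelled cells). CCL3 had 0.411 and 0.157 FPKM with SET siRNA and 0.388 and 0.393 FPKM with control siRNA in KO-labelled cells, and 7.84, 7.14 and 7.14 FPKM with SET siRNA and 1.19, 1.31 and 1.20 FPKM with control siRNA in WT-labelled cells. MMP3, a matrix protease, rose in both lines, by 0.76 in KO-labelled cells and by 1.99 in WT-labelled cells (interaction 1.22). The other positive members were CSF2 (0.82), IL1A (0.47) and LIF (0.31), and the negative ones CXCL3 (-0.60), CCL2 (-0.57) and NFKB2 (-0.41). CSF2 was lost without the second KO-labelled library with SET siRNA (adjusted p 0.0553), IL1A and LIF in 8 of 10 leave-one-out fits (highest adjusted p 0.112 for IL1A and 0.118 for LIF), CXCL3 in 4 (0.0964) and CCL2 in 3 (0.0908). The counts were 2 to 4 positive and 1 to 5 negative with 1 library left out, and 5 and 7 after GC centring.

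Interferon response genes had 1 positive and 2 negative calls of 20, AP-1 and immediate early genes 1 and 4 of 17, extracellular matrix genes 6 and 4 of 30, and targets of TGF-beta, YAP and SRF 5 and 1 of 27. Glycolysis and hypoxia had 0 and 1 of 31, respiratory chain 1 and 0 of 43, and SET partners and PP2A 1 and 2 of 26. Over all genes 10.5% were positive and 8.6% negative. The shares were 5% and 10% for interferon, 5.88% and 23.5% for AP-1 and 20% and 13.3% for extracellular matrix. They were 18.5% and 3.7% for TGF-beta, YAP and SRF targets and 0% and 3.23% for glycolysis. For respiratory chain they were 2.33% and 0%, and for SET partners 3.85% and 7.69%. The negative shares of interferon and SET partners lay nearest that of all genes. Cytosolic ribosomal proteins had 0 and 0 of 52 in limma (median -0.04), and 1 and 3 at an unadjusted p below 0.05. Glycolysis and hypoxia had 0 and 12 at that unadjusted threshold, and respiratory chain 8 and 3. These counts rested on single libraries. Without the first KO-labelled control library, glycolysis and hypoxia had 9 negative, cytosolic ribosomal proteins 8 negative, respiratory chain 5 positive and 4 negative, SET partners 5 and 3, and TGF-beta, YAP and SRF targets 7 and 5. The 5 positive TGF-beta, YAP and SRF targets became 2 without either KO-labelled library with SET siRNA, and the 6 positive extracellular matrix genes became 2 without the second. With 1 library left out, interferon genes had 0 or 1 negative calls, AP-1 genes 0 to 5, and extracellular matrix genes 2 to 6. GC centring gave 3 positive and 2 negative for interferon, 8 and 5 for extracellular matrix, 4 and 2 for TGF-beta, YAP and SRF targets, 0 and 5 for glycolysis, 0 and 1 for respiratory chain, 2 and 5 for SET partners, and 0 and 1 for cytosolic ribosomal proteins. STAT2, a transducer of interferon signalling, was the positive interferon member at 0.52, and IFIT1 and OAS3, antiviral effectors, were the negative ones at -0.49 and -0.38, lost in 7 and 6 of 10 leave-one-out fits. LAMA4, a laminin, had 0.94. AXL, a receptor kinase, fell by 1.34 in KO-labelled cells and by 1.04 in WT-labelled cells (interaction 0.30). PGAM1, a glycolytic mutase, was the member called in its list, at -0.28. The negative AP-1 members IER2, FOSL1, JUNB and MYC each lost the call in 4 to 8 of 10 leave-one-out fits, and GC centring gave that list 6 positive and 1 negative. In the SET partner list NAP1L1 was positive, and ANP32B (-0.31) and HMGB2 (-0.26), which bind histones and DNA, were negative and lost the call in 4 and 8 of 10 leave-one-out fits. The respiratory chain member was NDUFV2 (0.26), lost in 8 of 10.

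Outside the lists, ENC1, an actin-binding protein, had 45.7 and 41.7 FPKM with SET siRNA and 93.5 and 100.3 FPKM with control siRNA in KO-labelled cells, against 73.1, 67.3 and 72.2 FPKM with SET siRNA and 68.9, 75.6 and 69.0 FPKM with control siRNA in WT-labelled cells. It fell by 1.13 in KO-labelled cells, its WT-labelled response of -0.01 did not pass (limma, adjusted p = 0.938), and its interaction was 1.13.

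Negative interactions of at least 1 in size also came from genes outside the lists. G0S2, an inhibitor of the lipase ATGL, had 18 and 21.1 FPKM with SET siRNA and 6.64 and 6.12 FPKM with control siRNA in KO-labelled cells, and 10.5, 12.3 and 11.3 FPKM with SET siRNA and 11, 7.73 and 9.12 FPKM with control siRNA in WT-labelled cells. Its interaction was -1.20. SLCO4A1, an organic anion transporter, had -1.13, C9orf140 -1.11, HMX2, a homeobox gene, -1.10, and ANXA10, an annexin, -1.29. After GC centring the interactions were -0.94 for SLCO4A1, -0.84 for C9orf140, -0.91 for HMX2, -1.06 for G0S2 and -1.45 for ANXA10. LOC100652895 (-3.10) overlaps VPS4B, LOC100652839 (-1.24) FSCN1 and LOC100652896 (-1.05) PUS7, so reads may be shared within each of these pairs. LOC100652839 and LOC100652896 each lost the call in 3 of 10 leave-one-out fits, with highest adjusted p values of 0.078 and 0.0847. LOC100505817 (-1.54) was listed at 0 FPKM in 3 of 4 KO-labelled libraries and ANXA10 was at most 0.485 FPKM there, so their interactions are nearly the WT-labelled responses of -1.50 and -1.10. LOC100652895 was 6.50 and 3.06 FPKM with SET siRNA in KO-labelled cells, while its KO-labelled control libraries lay apart, with the higher at 1.48 FPKM and the other near 0.

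For a few called genes the interaction on log2(FPKM + 1) was not a difference in FPKM ratio. MFAP5, a microfibril protein, had 0.224 and 0.223 FPKM with SET siRNA and 1.04 and 1.25 FPKM with control siRNA in KO-labelled cells, and 2.20, 1.71 and 1.32 FPKM with SET siRNA and 8.45, 8.63 and 9.17 FPKM with control siRNA in WT-labelled cells. Its SET siRNA to control ratio was 0.196 in KO-labelled cells and 0.199 in WT-labelled cells, while the interaction was -1.03. TNNT2, cardiac troponin T, and COL3A1, a fibrillar collagen, also had close ratios in the lines, at interactions of -0.90 for TNNT2 and 1.00 for COL3A1. COL3A1 lost the call in 8 of 10 leave-one-out fits (highest adjusted p 0.146). With a pseudocount of 0.1, MFAP5, TNNT2 and COL3A1 lost the call (limma, adjusted p 0.361, 0.503 and 0.77), as did CSF2 (0.229) and IL1A (0.945), whose estimates changed sign. The MDM2, CDC20, PLK1 and MCM2 interactions, measured well above 1 FPKM in every library, kept their calls under every alternative tried.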

How the data were processed

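RNA sequencing was done on 10 libraries in 4 groups, grouped by their sample labels because the series design text names SET as the CRISPR target while describing a p53 knockout line. The deposited values are FPKM per gene with a confidence interval and a status, computed by the authors, per the file headers. The submitters' processing notes name Cufflinks 2.0.2, TopHat2 2.0.4 and bcl2fastq 1.8.4. The build, the annotation and the strand setting are not given in the sources used, so overlapping genes may share reads. The status was failed for 3 to 12 genes in a library and low data for 78. Depth was not stated, so no count test was used.

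Values were log2(FPKM + 1), which understates fold changes of low genes. limma 3.58.1 in R 4.3.3 fitted the 4 groups with eBayes and trend, and Benjamini-Hochberg adjusted p-values below 0.05 over 14813 genes were called. Every adjusted p is from limma. For 45 repeated symbols the tested entry with the highest mean FPKM was used. Tables and plots were made in Python 3.11.15 (pandas 2.3.3, numpy 2.4.6, matplotlib 3.10.9). On simulated data with 200 of 14813 genes changed in the interaction, the test found 65% of 1.5-fold changes and 95% of 2-fold ones, and 3.03% of its calls were false. The simulated noise was independent between genes, and no changed gene came from those with the lowest mean values. The deposited libraries also shifted with GC share, so these rates are not error rates of the calls reported here.

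The genes and 31 lists were chosen with earlier results of these data known. Named genes were, among called genes with mean FPKM of at least 5 in a group, the 12 largest interactions in each direction and the 3 largest per pattern of responses and per kind of large response; SET, CDKN1A, MDM2, BBC3 and GDF15 always; and the 4 largest called members per list. Genes with small RNA symbols, such as those starting with SNORD or MIR, were left out of the choices by size. A larger interaction among them would therefore not be named. A further 23 genes were named to account for counts of 5 or fewer after their values were seen. Some results that the rule selects are not reported here. The alternatives changed the pseudocount, the filter on low values (none, or stricter), the scaling (quantile or median-of-ratios), or used no trend, array weights, a replicate block, genes of clean status, each library left out, and, chosen after seeing the data, centring within GC bins. The GC share is that of a gene's longest GENCODE transcript, and promoters are from the RefSeq table of GRCh38.p14, both matched by symbol.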

Additional observations from a re-analysis of the deposited data

Results flagged for a closer look

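The SET siRNA response differed between the KO-labelled and WT-labelled lines in 2831 genes by the limma test of the difference itself. The values are interactions on log2(FPKM + 1), with the response of the KO-labelled line subtracted from that of the WT-labelled line, for the called genes among those chosen by rule. No explanation was tested.

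The largest positive interactions were 2.10 for MDM2, 2.08 for NBEAP1, 2.03 for CCL3, 1.93 for PVRL4, 1.90 for C8orf75, 1.87 for TP53INP1, 1.86 for SESN1, 1.83 for BTG2, 1.79 for GDF15, 1.74 for FAS, 1.70 for CDRT4, 1.65 for INPP5D and 1.63 for TP53I3. Next in size were 1.63 for LOC100653010, 1.57 for ACER2, 1.56 for LOC100652898, 1.52 for ACTA2, 1.30 for RRM2B, 1.30 for RGS16, 1.29 for KIAA0247, 1.22 for MMP3, 1.13 for ENC1, 1.01 for C4orf34, 1.00 for COL3A1, 1.00 for LOC100652762, 0.97 for ATF3 and 0.96 for CTH. Further positive interactions were 0.94 for LAMA4, 0.82 for CSF2, 0.82 for CDKN1C, 0.78 for E2F7, 0.77 for CHAC1, 0.76 for ASNS, 0.74 for CDKN1A, 0.72 for FDXR, 0.70 for BBC3, 0.70 for DNAJC3, 0.69 for ATG4A, 0.67 for DNAJB9, 0.67 for CDKN2B and 0.58 for LUM. Smaller positive values were 0.54 for XBP1, 0.52 for STAT2, 0.51 for MDM4, 0.50 for EZH1, 0.50 for TET2, 0.48 for CLDN4, 0.47 for KAT2B, 0.47 for SEL1L, 0.47 for IL1A, 0.47 for ATG2B, 0.45 for ATP6V1A, 0.42 for ANKRD1, 0.41 for RBL2 and 0.41 for WIPI1. The smallest positive values were 0.40 for CCND2, 0.32 for MTHFD2, 0.32 for SKIL, 0.31 for NAP1L1, 0.31 for LIF, 0.30 for AXL, 0.30 for UTP3, 0.28 for KLF6 and 0.26 for NDUFV2.

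The largest negative interactions were -3.10 for LOC100652895, -1.54 for LOC100505817, -1.29 for ANXA10, -1.24 for LOC100652839, -1.20 for G0S2, -1.16 for UHRF1, -1.13 for SLCO4A1, -1.11 for C9orf140, -1.10 for HMX2, -1.05 for LOC100652896, -1.04 for CDC20, -1.04 for E2F2, -1.03 for MFAP5 and -1.02 for H2AFX. Next in size were -1.01 for PLK1, -0.98 for CDT1, -0.96 for LOC100506678, -0.96 for MCM2, -0.93 for MCM5, -0.93 for MCM10, -0.90 for TNNT2, -0.90 for SPC24, -0.89 for E2F1, -0.88 for CDKN2C, -0.85 for CDCA8, -0.83 for CDC25A and -0.82 for SUV39H1. Further negative interactions were -0.82 for CDCA5, -0.78 for FASN, -0.77 for WTIP, -0.77 for CENPA, -0.74 for TK1, -0.72 for CCNE1, -0.71 for E2F8, -0.70 for DHCR7, -0.69 for RAD54L, -0.69 for FANCE, -0.68 for SCD, -0.67 for EXO1, -0.67 for NCAPH and -0.66 for TP73. Negative values of middle size were -0.63 for KRT14, -0.61 for MSI1, -0.61 for LMNB2, -0.60 for CXCL3, -0.58 for H1FX, -0.57 for CCL2, -0.57 for CENPO, -0.56 for BOP1, -0.55 for CENPM, -0.54 for TCOF1, -0.52 for RRP9, -0.49 for NOLC1 and -0.49 for IFIT1. Smaller negative values were -0.46 for NCAPH2, -0.45 for SETD8, -0.45 for SFN, -0.44 for IER2, -0.44 for NCAPD3, -0.44 for BID, -0.43 for SLC7A5, -0.43 for PPAT, -0.43 for TRIM28, -0.42 for TIMP3, -0.41 for NFKB2, -0.41 for RRM2, -0.38 for OAS3 and -0.38 for PRPS2. The smallest negative values were -0.37 for FOSL1, -0.36 for TGFBI, -0.35 for JUNB, -0.31 for ANP32B, -0.31 for MYC, -0.31 for CHEK1, -0.28 for PGAM1, -0.28 for LAMB1 and -0.26 for HMGB2.

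Of these genes 87 kept the call in all 10 fits that left out 1 library each, and 54 lost it in at least 1. WTIP and SKIL lost it in 9, and LOC100653010, BBC3, SFN, IL1A, LIF, COL3A1, FOSL1, UTP3, NDUFV2 and HMGB2 in 8. EZH1, NAP1L1, SLC7A5, IFIT1, ANKRD1, JUNB, MYC, BOP1 and H1FX lost it in 7, and BID, OAS3, LAMB1, SEL1L, KLF6 and MSI1 in 6. CDRT4, PRPS2 and DNAJB9 lost it in 5, and the others in 1 to 4. The highest adjusted p in those fits was 0.15 for SKIL, 0.127 for WTIP, 0.122 for LOC100653010, 0.146 for MSI1 and 0.106 for H1FX (limma).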

How the results depend on the processing

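Without 1 library the count of called interactions was 1143 to 4589, against 2831 with all 10, with 620 to 2438 positive and 523 to 2151 negative. The low end was without the first KO-labelled library with SET siRNA and the high end without the first KO-labelled library with control siRNA. Called SET siRNA responses were 3463 to 5832 in KO-labelled cells and 6989 to 8680 in WT-labelled cells. The other alternatives gave 2407 to 3468 called interactions, and a call shared with the fit of all libraries changed sign under none of the 20 alternatives. Across 2904 pairs of a named gene and an alternative, 2559 kept their sign and their side of the threshold, 339 lost the call, 2 gained one and 4 changed sign. With a pseudocount of 0.1 the interaction was -0.93 for CSF2 (limma, adjusted p 0.229), -0.039 for IL1A (0.945) and 0.12 for LINC00161 (0.931), and LINC00161 ranged from -0.51 to 0.021 with 1 library left out. The causes were not tested. Called interactions of at least 1 in size numbered 200 with that pseudocount and 92 with 1. Medians of positive and negative lists named in the text kept their sign under both other scalings.

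A replicate block gave 3400 called interactions, 1825 positive and 1575 negative. Deviations of same-numbered libraries correlated at -0.0833 to 0.228 across genes. The highest were between the control libraries of the lines, at 0.217 for the first and 0.228 for the second. In a group of 2 libraries the deviations mirror each other, so these values cannot decide whether equal numbers pair the libraries. The labels do not say that they do, so the block was used as an alternative only. Groups of 2 and 3 libraries limit the small interactions most, and the shares called were 8.03% of genes with mean FPKM below 2 and 23.3% of those at 10 to 50.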
